A study of Mus musculus with 4 samples.

Results

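Globin chains and 2 other red cell genes were followed in the whole lung of the mouse embryo at E16.5. The members were the 9 rows of the table that carried the symbols Hba-x, Hba-a1 and Hba-a2 of the alpha globin cluster, Hbb-y, Hbb-bh1, Hbb-b1 and Hbb-b2 of the beta globin cluster, and Alas2 and Slc4a1, out of 22556 genes in all. None of the 9 symbols was absent. Control embryos carried Shh-Cre with 1 floxed and 1 intact allele of Stk11 (Shh-Cre; Stk11F/+), and Shh-Stk11 embryos carried Shh-Cre with both alleles floxed (Shh-Cre; Stk11F/F), so that every library came from an embryo with the Cre driver. Each genotype had 2 libraries, Control 1 and 2 and Shh-Stk11 1 and 2, and where 4 values of a gene follow each other they are in that order. Shh-Cre recombines in the endoderm that gives rise to the lung epithelium, and the blood that the members mark lies outside that lineage. The strain was labelled C57BL/6, whereas the study's methods describe mixed backgrounds.

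Hemoglobin is a tetramer of alpha-type and beta-type globin chains, each of which holds a heme group. The mouse uses embryonic chains (zeta, encoded by Hba-x, with epsilon-y and beta-h1, encoded by Hbb-y and Hbb-bh1) in the primitive red cells that arise in the yolk sac, and adult chains in the definitive red cells that come from the fetal liver and later from the bone marrow. Primitive red cells keep circulating for part of fetal life, so a fetal organ with its blood holds transcripts of both kinds.

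All 8 members that could be tested had lower fitted values in Shh-Stk11 than in Control lungs, and the fitted differences of Hba-x and Hbb-y were larger than those of the adult chains. Hba-x was the only member past the threshold. Its log2 fold change was -1.49, and that of Hbb-y, which lay just outside the threshold, was -1.66. The adult chains Hba-a1, Hbb-b1 and Hbb-b2 and the heme enzyme gene Alas2 lay between -0.57 and -0.52, with no call. Values are FPKM, read numbers divided by the length of the transcript and the size of the library, and log2 fold changes are on the log2(FPKM + 0.1) scale, Shh-Stk11 minus Control. The threshold was an adjusted p of 0.05 in limma, a linear model that shares its estimate of variance across genes. In RNA of a whole organ, fewer red cells and less globin RNA per cell cannot be told apart.

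Each library held an estimated 30.9 M to 38.0 M reads. Stk11 itself stood at 44.0 and 45.5 FPKM in the Control libraries and at 29.5 and 25.95 FPKM in the Shh-Stk11 libraries (log2 fold change -0.69, limma adjusted p 0.0499), in accord with the labels. Lung epithelial markers were present in every library, with Sftpc, a surfactant protein gene, at no less than 8005 FPKM. Of 8 such markers 7 had a positive log2 fold change (median 0.21) and Sftpc was at -0.76, whereas 58.3% of all genes tested had a negative one. Limma called 0 of them (2.27% of all genes), with 2 higher and 0 lower at an unadjusted p under 0.05 (8.04% and 7.18% of all genes). Shh-Stk11 2 carried Y-linked transcripts (Ddx3y at 23.5 FPKM, against at most 0.0285 FPKM elsewhere) and little Xist (0.239 FPKM), whereas the other libraries carried Xist at 65.1 to 169 FPKM. The sex of the embryos was not labelled, and in these libraries it was not balanced between the genotypes.

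The regions just before the start sites of the embryonic genes Hba-x and Hbb-y, of an adult gene of each cluster and of Alas2 are shown, because these genes all had lower fitted values while the embryonic and adult chains differed by unequal amounts. The sequences are from RefSeq on GRCm38.p6, 250 bases that end at the base before the start, on the strand of the gene, and capitals mark every match to the motif GATAA, to the motif CACCC and to the motif CCAAT on either strand, and to the motif TATAA on the gene's strand. They lie at chr11:32276350-32276599 (Hba-x, plus strand), chr7:103853208-103853457 (Hbb-y, minus strand), chr11:32283422-32283671 (Hba-a1, plus strand), chr7:103827929-103828178 (Hbb-bs, minus strand) and chrX:150547167-150547416 (Alas2, plus strand).
Hba-x: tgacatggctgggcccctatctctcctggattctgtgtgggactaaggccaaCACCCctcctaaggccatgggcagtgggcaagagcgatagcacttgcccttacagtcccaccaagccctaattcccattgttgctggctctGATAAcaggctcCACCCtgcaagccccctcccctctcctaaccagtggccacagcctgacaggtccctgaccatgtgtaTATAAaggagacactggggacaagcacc
Hbb-y: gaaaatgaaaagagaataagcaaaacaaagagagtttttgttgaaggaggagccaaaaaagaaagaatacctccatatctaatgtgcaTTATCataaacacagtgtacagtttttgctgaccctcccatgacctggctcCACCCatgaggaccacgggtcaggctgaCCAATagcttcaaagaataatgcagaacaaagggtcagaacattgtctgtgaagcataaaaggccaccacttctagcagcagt
Hba-a1: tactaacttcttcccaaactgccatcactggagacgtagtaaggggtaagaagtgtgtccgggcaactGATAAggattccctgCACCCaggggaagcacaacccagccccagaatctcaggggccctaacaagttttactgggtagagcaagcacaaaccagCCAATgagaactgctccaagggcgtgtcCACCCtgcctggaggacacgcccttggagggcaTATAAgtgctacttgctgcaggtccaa
Hbb-bs: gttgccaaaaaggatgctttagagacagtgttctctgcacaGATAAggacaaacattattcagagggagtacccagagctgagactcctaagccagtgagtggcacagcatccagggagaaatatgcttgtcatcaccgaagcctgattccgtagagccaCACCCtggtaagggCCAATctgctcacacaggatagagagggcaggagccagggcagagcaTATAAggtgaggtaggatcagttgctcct
Alas2: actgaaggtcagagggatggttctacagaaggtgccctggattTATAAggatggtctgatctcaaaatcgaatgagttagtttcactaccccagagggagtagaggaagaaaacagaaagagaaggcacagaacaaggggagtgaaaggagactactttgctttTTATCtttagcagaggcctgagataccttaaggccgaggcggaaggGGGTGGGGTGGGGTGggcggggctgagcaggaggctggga

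GATAA is a form of the site of GATA factors such as GATA1, CACCC is a core of the sites of KLF factors such as KLF1, and the other motifs are general promoter elements. All 5 printed regions held GATAA, and all held CACCC too. The Hba-x region held no CCAAT and had TATAA 28 bases before the start, the Hbb-y region had CCAAT 83 bases before the start and no TATAA, and the Hba-a1 and Hbb-bs regions held both. In Alas2 the CACCC matches lay on the opposite strand, in 3 consecutive runs, and TATAA lay as far as 207 bases before the start. Among 32851 promoters of the same length, GATAA occurred in 22.6%, CACCC in 52.0%, CCAAT in 33.8% and TATAA in 16.0%. The regions of Hba-a1 and Hba-a2 shared an unbroken run of 247 of 250 bases. A match is a description of the letters only. RefSeq promoters were matched for 5 of the 9 members, and Hbb-bh1, Hbb-b1, Hbb-b2 and Slc4a1 had no match.

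Hba-x, the embryonic zeta chain, stood at 16.5 and 16.4 FPKM in the Control libraries and at 4.87 and 6.89 FPKM in Shh-Stk11 libraries 1 and 2. Both Shh-Stk11 values lay well below the Control values, which were almost equal to each other. The means were 16.5 ± 0.0501 and 5.88 ± 1.43 FPKM (SD, n = 2), with a log2 fold change of -1.49 (SE 0.18, limma adjusted p 0.0158). These values correspond to about 371, 307, 88.9 and 136 reads, so that the call did not rest on a handful of reads. Over the alternative settings the adjusted p in limma ranged from 0.00306 to 0.287, and the call was lost without Control 1 (adjusted p 0.0789), without Control 2 (adjusted p 0.0848), with no filter on low values (adjusted p 0.287) and with the replicate number as a block (adjusted p 0.0887). The fitted difference hardly moved without a Control library, at -1.49 and -1.495.

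Hbb-y, the embryonic epsilon-y chain, had the largest fitted difference of the members. It stood at 26.4 and 29.1 FPKM in the Control libraries and at 6.14 and 12.4 FPKM in Shh-Stk11 libraries 1 and 2. The groups did not overlap, but the Shh-Stk11 libraries differed from each other far more than the Control libraries did. The means were 27.8 ± 1.94 and 9.28 ± 4.44 FPKM (SD, n = 2), with a log2 fold change of -1.66 (SE 0.30, limma adjusted p 0.0522). Without Shh-Stk11 1 the log2 fold change was -1.15 (limma adjusted p 0.025), and without Shh-Stk11 2 it was -2.16 (limma adjusted p 0.00114) in fits that no longer hold the spread between these libraries. Without Control 1 the adjusted p in limma was 0.156, and without Control 2 it was 0.165.

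Hbb-bh1, the embryonic beta-h1 chain, was the lowest of the tested members. It stood at 0.978 and 1.02 FPKM in the Control libraries and at 0.563 and 0.523 FPKM in Shh-Stk11 libraries 1 and 2. Both Shh-Stk11 values were below both Control values, on an estimated 15, 13, 7.01 and 7.01 reads. The log2 fold change of -0.77 (SE 0.28, limma adjusted p 0.252) did not pass. At so low a level it depended on the pseudocount, with -0.37 at a pseudocount of 1 and -0.87 at 0.01.

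**Figure D1:**
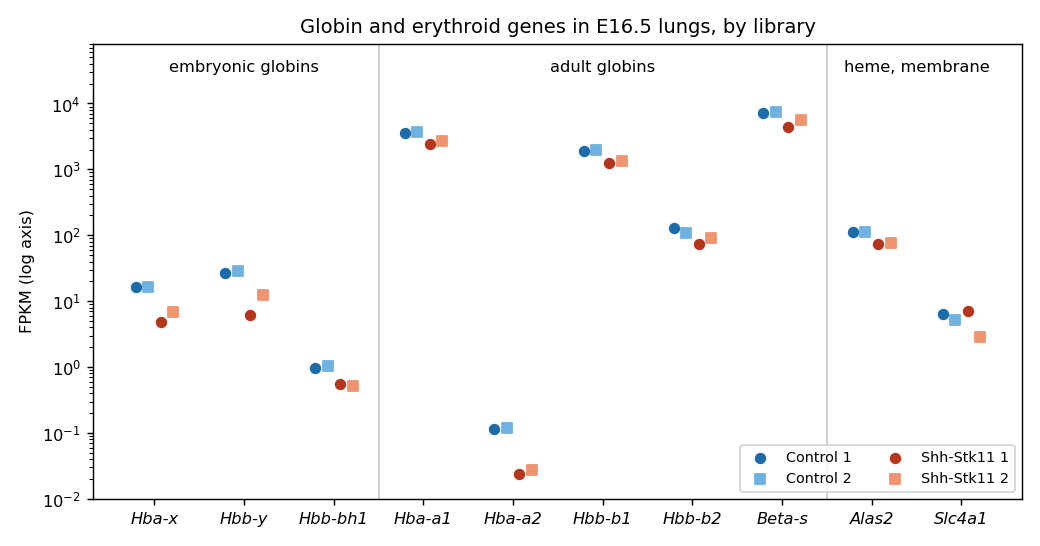
FPKM of each member and of Beta-s in the 4 libraries on a logarithmic axis, where each point is 1 library. For Hba-x the Control libraries sit at 16.5 and 16.4 FPKM and the Shh-Stk11 libraries at 4.87 and 6.89, and for Slc4a1 the Shh-Stk11 libraries lie on either side of the Control libraries.

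Among the adult chains, Hba-a1, an adult alpha chain, had the highest level of the members. It stood at 3557 and 3700 FPKM in the Control libraries and at 2399 and 2669 FPKM in Shh-Stk11 libraries 1 and 2. The groups did not overlap, and the means of 3629 ± 101 and 2534 ± 191 FPKM (SD, n = 2) gave a log2 fold change of -0.52 (SE 0.25, limma adjusted p 0.394). Hba-a2, the second adult alpha gene, was listed at only 0.115, 0.118, 0.024 and 0.0277 FPKM, which corresponds to at most 1.51 reads, and no fold is given for it. The annotated transcripts of these copies are nearly the same, and 439 of the 505 windows of 50 bases in Hba-a2 (86.9%) also occur in Hba-a1. Reads of the pair cannot be assigned with certainty, and the row of Hba-a1 may hold reads of both genes.

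Hbb-b1, listed as an adult beta chain, stood at 1871 and 1942 FPKM in the Control libraries and at 1249 and 1337 FPKM in Shh-Stk11 libraries 1 and 2. Again the genotypes were separate, with a log2 fold change of -0.56 (SE 0.21, limma adjusted p 0.262). Hbb-b2, listed as the minor adult beta chain, stood at 127.7 and 108.4 FPKM in the Control libraries and at 73.9 and 91.5 FPKM in Shh-Stk11 libraries 1 and 2. Its groups did not overlap either (log2 fold change -0.52, SE 0.16, limma adjusted p 0.186). The highest beta globin row of the table, Beta-s, is an older symbol of Hbb-bs, an adult beta gene, and is not a member. Beta-s stood at 7064, 7316, 4456 and 5541 FPKM in the same order of libraries (limma adjusted p 0.478 for a log2 fold change of -0.53 with SE 0.31). The current genes Hbb-bs and Hbb-bt share 65.8% of the windows of 50 bases of Hbb-bs, and which current gene the rows Hbb-b1 and Hbb-b2 hold is not given in the sources used here.

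The globin transcripts, embryonic and adult, are short, and short transcripts as a class had a lower median in Shh-Stk11 lungs. Over 771 tested genes with an annotated transcript under 1000 bases the median log2 fold change was -0.21, with -0.32 in Shh-Stk11 1 and -0.11 in Shh-Stk11 2 against the Control mean, whereas it was 0.01 over 7717 genes of at least 3000 bases. With the trend on length and GC content removed, an alternative chosen after seeing the data, Hba-a1 was at -0.28, Beta-s at -0.32, Alas2 at -0.44, Hbb-bh1 at -0.60, Hba-x at -1.27 (limma adjusted p 0.0327) and Hbb-y at -1.46 (limma adjusted p 0.0906). Hbb-b1 and Hbb-b2 had no annotated transcript to correct by. Quantile normalization moved Hba-a1 to -0.15, Hbb-b1 to -0.27 and Beta-s to -0.24, with Hbb-b2 at -0.41, Alas2 at -0.47 and Hba-x at -1.49.

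The embryonic to adult ratio within a library sets chains of the same kind against each other, so that a factor common to both cancels. In the alpha cluster, Hba-x was set against the summed adult alpha chains, and amounted to 0.464% and 0.444% in the Control libraries and to 0.203% and 0.258% in Shh-Stk11 libraries 1 and 2. The ratio was lower in both Shh-Stk11 libraries, with means of 0.454 ± 0.0141% and 0.231 ± 0.0391% (SD, n = 2), a 1.98-fold difference between the means of the log2 ratios, the scale of every fold given for a ratio. In the beta cluster, Hbb-y and Hbb-bh1 together were set against Hbb-b1 plus Hbb-b2, and amounted to 1.37% and 1.47% in the Control libraries and to 0.507% and 0.906% in Shh-Stk11 libraries 1 and 2. The genotypes were again separate, with means of 1.42 ± 0.0714% and 0.707 ± 0.282%, a 2.09-fold difference. With Beta-s in the adult sum the beta ratio was 0.302%, 0.322%, 0.116% and 0.186%, a 2.13-fold difference. The two-sided exact permutation test gave p = 0.333 for each of these ratios, the smallest value that 2 against 2 libraries allow.

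The embryonic beta-type chains did not contribute equally to that ratio. Relative to the adult beta sum, the log2 difference was -1.11 for Hbb-y alone and -0.32 for Hbb-bh1, which went from 0.0489% and 0.0498% to 0.0426% and 0.0366%. Against the Control mean on the log2 scale, Hbb-y was at -2.16 and -1.15 in Shh-Stk11 libraries 1 and 2. Hba-x was at -1.74 and -1.25, whereas Hba-a1 was at -0.60 and -0.44 and Hbb-b1 at -0.61 and -0.51. In each Shh-Stk11 library the main embryonic chains thus lay further from Control than the adult chains did.

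**Figure D2:**
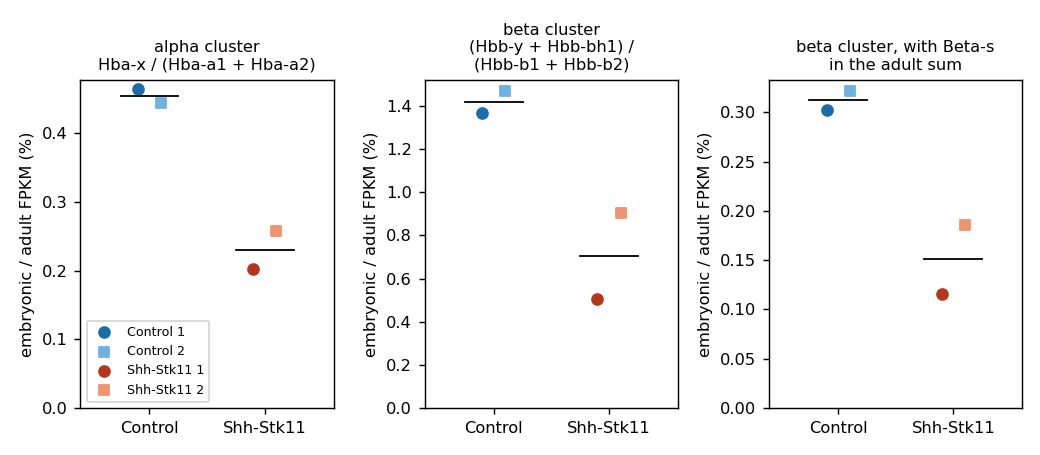
Embryonic globin FPKM as a percentage of adult globin FPKM in the alpha cluster (left), the beta cluster (middle) and the beta cluster with Beta-s in the adult sum (right), where each point is 1 library and the line is the mean of a genotype. In every panel both Shh-Stk11 libraries lie below both Control libraries, and Shh-Stk11 1 is the lowest (0.203%, 0.507% and 0.116%).

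The summed alpha chains amounted to 1.76, 1.79, 1.81 and 1.86 times the summed beta chains, a log2 difference of 0.05 (two-sided exact permutation test, p = 0.333). With geometric means in place of sums, which give the nearly empty row of Hba-a2 equal weight, this difference was -0.49 and the alpha embryonic to adult difference went from -0.99 to -0.16. With Beta-s in the beta sum it was 0.393, 0.396, 0.415 and 0.383, and the genotypes overlapped. Hbb-b2 amounted to 6.82%, 5.58%, 5.92% and 6.84% of Hbb-b1, again with overlap. All globin members together made up 0.966% and 0.923% of the summed FPKM of the table in Control and 0.725% and 0.725% in Shh-Stk11 lungs, and with Beta-s 2.18%, 2.09%, 1.59% and 1.70%.

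Alas2, the X-linked gene of the enzyme that sets the rate of heme synthesis in red cells, stood at 111.9 and 110.9 FPKM in the Control libraries and at 74.6 and 75.6 FPKM in Shh-Stk11 libraries 1 and 2. The groups were separate and each was tight, with means of 111 ± 0.728 and 75.1 ± 0.704 FPKM (SD, n = 2) and a log2 fold change of -0.57 (SE 0.12, limma adjusted p 0.0748). The value of the library with Y-linked transcripts lay next to that of the other Shh-Stk11 library. The part of sex in the level of Alas2 was not tested. Alas2 amounted to 3.15%, 2.996%, 3.11% and 2.83% of the summed adult alpha FPKM, with overlap between the genotypes.

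Slc4a1, which encodes band 3, the anion exchanger of the red cell membrane, did not follow the globins. It stood at 6.46 and 5.11 FPKM in the Control libraries and at 7.05 and 2.82 FPKM in Shh-Stk11 libraries 1 and 2. Shh-Stk11 1 was the highest and Shh-Stk11 2 the lowest of the 4 libraries, so that the groups overlapped (log2 fold change -0.36, SE 0.40, limma adjusted p 0.721). Without Shh-Stk11 2 the log2 fold change was 0.29, and without Shh-Stk11 1 it was -1.001. Relative to the adult alpha sum Slc4a1 was 0.182%, 0.138%, 0.294% and 0.106%.

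In the order of Control levels, Hba-a1 was followed by Hbb-b1, then by Hbb-b2 and Alas2, whose libraries overlapped in either genotype, then by Hbb-y, Hba-x, Slc4a1 and Hbb-bh1, with Hba-a2 last. In Shh-Stk11 lungs the ranges of Hbb-y, Hba-x and Slc4a1 overlapped one another. Of the 8 tested members, 1 was called lower and 0 higher, against 1.29% and 0.98% of all 13770 genes tested (2.27% in either direction), and 6 had an unadjusted p under 0.05 in the lower direction, against 7.18% of all genes. Both Shh-Stk11 libraries lay below both Control libraries in 7 of 8, against 27.6% of all genes, and above both in 0 of 8, against 19.2%. The median log2 fold change was -0.56 over the 8 members and -0.05 over all genes tested. The members all mark red cells, so that they are not independent of each other.

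Other erythroid genes were read from the same fit. Of 47 genes in 4 lists (heme synthesis and iron supply, red cell membrane and skeleton, late red cell maturation, and erythroid transcription factors), 36 could be tested. Limma called 0 of them in either direction, against 2.27% of all genes. At an unadjusted p under 0.05 there were 5 lower, against 7.18% of all genes, and 0 higher, against 8.04%. A negative log2 fold change was found in 29 of 36, against 58.3% of all genes tested. The median log2 fold change was -0.16, and both Shh-Stk11 libraries lay below both Control libraries in 13 of 36 (36.1%, against 27.6% of all genes).

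Of the 14 genes of heme synthesis and iron supply, 11 had a negative log2 fold change (58.3% of all genes), with a median of -0.14. None had an unadjusted p under 0.05 (at that p, 7.18% of all genes were lower and 8.04% higher). The list ran from -0.26 for Ppox, a late enzyme of the pathway, to 0.41 for Tfrc, the transferrin receptor. Many of these genes are used by all cells that make heme. In this they differed from Alas2, which is restricted to red cells.

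Among 10 tested genes of the red cell membrane and skeleton, Sptb, the beta spectrin of red cells that muscle and brain also use, had the largest fitted difference. It stood at 2.89 and 2.87 FPKM in the Control libraries and at 1.49 and 1.29 FPKM in Shh-Stk11 libraries 1 and 2, a log2 fold change of -1.01 (SE 0.19, limma adjusted p 0.0579). The groups were separate, and the adjusted p lay just above the threshold. Tmod1, a tropomodulin that caps actin filaments, was at -0.74 (limma adjusted p 0.143), and the water channel gene Aqp1, which endothelium also uses, at 0.23 (limma adjusted p 0.614). The median of the list was -0.29. Among 7 tested genes of late maturation, Car2, a carbonic anhydrase that other lung cells may also express, stood at 178, 187, 96.5 and 118 FPKM (limma adjusted p 0.0613 for a log2 fold change of -0.77), and the median was -0.16. Among 5 tested transcription factors Lmo2, a partner of GATA1 and TAL1 that endothelium also uses, was at -0.43 (limma adjusted p 0.173), and the median was -0.22. Gata1, Klf1 and Gfi1b were below the filter of 0.5 FPKM.

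**Figure D3:**
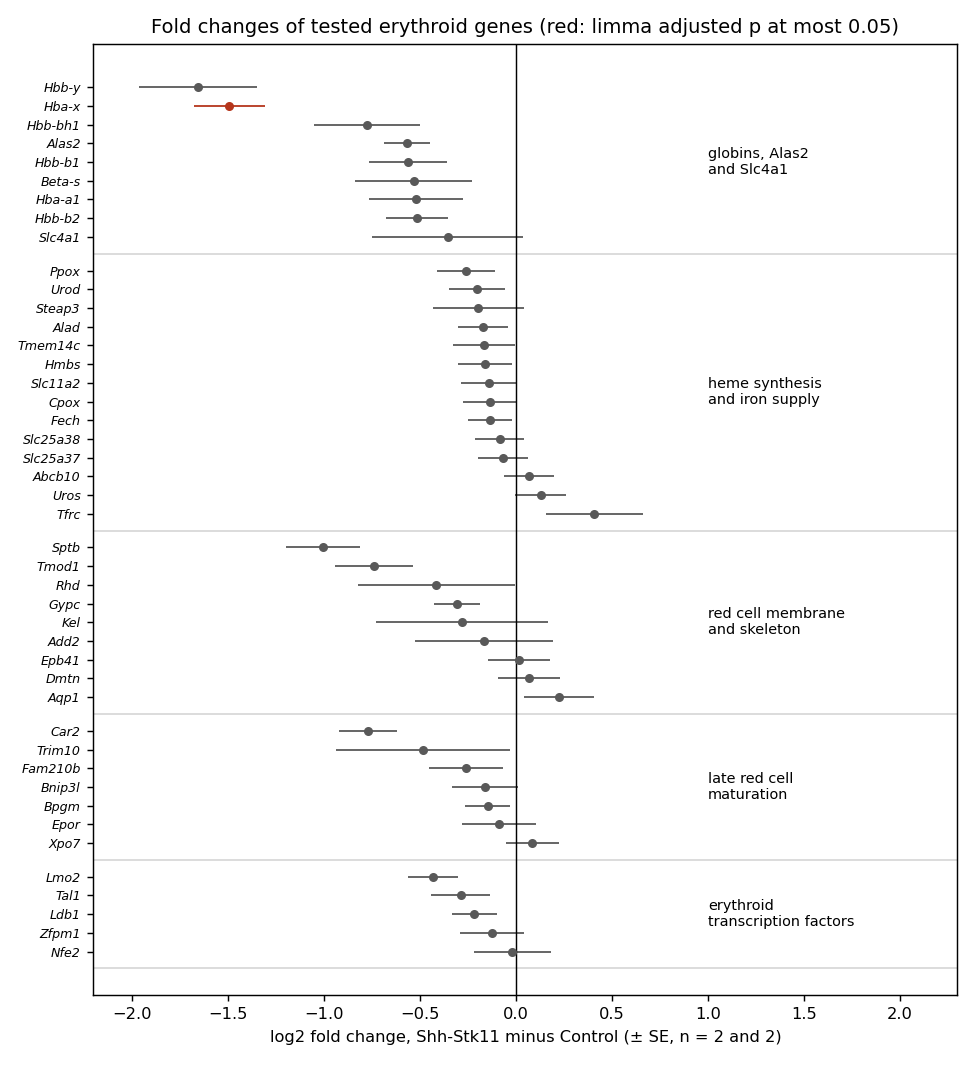
Log2 fold change of each tested globin and erythroid gene, Shh-Stk11 minus Control, with its SE from limma (n = 2 and 2) and grouped by list, where red marks an adjusted p of at most 0.05. Hba-x at -1.49 is the only red point, and most genes of the 4 lower groups lie left of 0 (29 of the 36 tested, of which 1 is not drawn, against 58.3% of all genes).

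A few other erythroid genes split the Shh-Stk11 libraries as Slc4a1 did, among them 2 of the 10 tested membrane genes, Rhd and Kel. Rhd, a subunit of the Rh complex, stood at 1.04 and 1.06 FPKM in the Control libraries and at 1.19 and 0.483 FPKM in Shh-Stk11 libraries 1 and 2. Kel, a blood group antigen with a peptidase fold, stood at 0.579, 0.808, 0.855 and 0.338 FPKM, and Trim10, a gene of terminal red cell maturation, at 2.11, 2.75, 2.86 and 0.988 FPKM. Each was above both Control libraries in Shh-Stk11 1 and below both in Shh-Stk11 2. This held for 6 of the 36 tested erythroid genes outside the members (also Xpo7, Slc25a37 and Zfpm1), against 4.15% of all genes. The split was small in Xpo7, Slc25a37 and Zfpm1. Against the Control mean in log2, Xpo7 was at 0.19 and -0.01 in Shh-Stk11 libraries 1 and 2. Slc25a37 was at 0.03 and -0.16, and Zfpm1 at 0.03 and -0.28. Rhd, Kel, Xpo7, Slc25a37 and Zfpm1 were chosen after their values were seen. Shh-Stk11 2 was the lowest library in 18 of the 36 genes, against 21.3% of all genes.

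**Figure D4:**
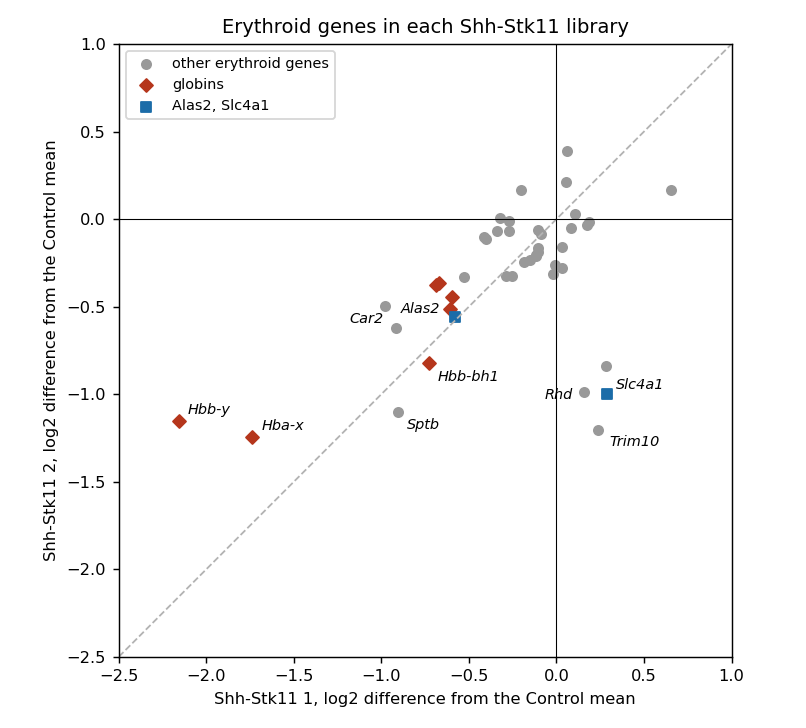
Log2 difference from the Control mean in Shh-Stk11 1 (horizontal axis) and Shh-Stk11 2 (vertical axis), with each point 1 tested gene and the dashed line marking equal values. The embryonic globins lie lower left (Hbb-y at -2.16 and -1.15, Hba-x at -1.74 and -1.25), and Slc4a1 (0.29 and -1.001), Rhd and Trim10 lie lower right.

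Hba-x and Hbb-y were lower in Shh-Stk11 1 than in Shh-Stk11 2, and so were Hba-a1, Hbb-b1, Hbb-b2 and Beta-s. Slc4a1, Rhd, Kel and Trim10 were instead lower in Shh-Stk11 2. Hbb-bh1, on the same estimated number of reads in both, gave no order. Markers of heart muscle, a neighbouring tissue, were also lowest in Shh-Stk11 2 in 5 of 5 tested genes (21.3% of all genes). All had a negative log2 fold change (58.3% of all genes), with a median of -0.94. Their sums over 6 genes, 1 of them below the filter, were 109, 243, 139 and 53.4 FPKM. Their part, and that of the sex difference between these libraries, in the values of Slc4a1 was not tested.

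Markers of other blood and vessel cells were counted in the same way. The 8 endothelial markers were summed at 769, 661, 530 and 566 FPKM and had a median log2 fold change of -0.38. They lay below both Control libraries in both Shh-Stk11 libraries in 7 of 8 genes (27.6% of all genes). Limma called 0 of these markers (2.27% of all genes), and 4 were lower at an unadjusted p under 0.05 (7.18% of all genes). Their part in the lower levels of the adult chains was not tested. All 6 tested platelet genes had a negative log2 fold change (58.3% of all genes), with a median of -0.32. Limma called 0 of them (2.27% of all genes), and 1 was lower at an unadjusted p under 0.05 (7.18% of all genes). The 6 tested leukocyte genes went both ways around a median of 0.06, from -0.66 for S100a9 to 0.77 for Ptprc. Limma called 0 of these (2.27% of all genes). At an unadjusted p under 0.05, 1 was lower and 1 higher (7.18% and 8.04% of all genes). Genes of the hepatocyte, which surrounds definitive red cell precursors in the fetal liver, were low, with Serpina1a listed at 0 in every library and a sum of at most 3.41 FPKM over 8 genes. The 2 that could be tested were Alb, at 0.491 to 1.602 FPKM (limma adjusted p 0.635 for a log2 fold change of -0.57), and Apoa2, at 2.68, 1.21, 0.723 and 1.63 FPKM (log2 fold change -0.68, limma adjusted p 0.56), and in both the genotypes overlapped. Their part in the lower levels of the members was not tested.

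Regulators of the switch between embryonic and adult globins were in part expressed in the lung. Of 9 tested, limma called 1 lower, against 1.29% of all genes. The list was divided, with 5 negative and 4 positive log2 fold changes and a median of -0.11. Myb, a transcription factor of blood progenitors that airway ciliated cells also use, stood at 7.45 and 7.91 FPKM in the Control libraries and at 3.42 and 2.46 FPKM in Shh-Stk11 libraries 1 and 2 (limma adjusted p 0.0249 for a log2 fold change of -1.37 with SE 0.19). Its groups were separate, and whole-lung RNA does not tell which cells held it. By staining, the study reported a lower abundance of MYB-positive ciliated cells in the airways of E16.5 Shh-Stk11 embryos. The part of these cells in the lower Myb values was not tested. Nr2c2, a nuclear receptor, was at 0.32 (limma adjusted p 0.453), Bcl11a, a repressor of embryonic globin genes, at -0.31 (limma adjusted p 0.51), and Sox6, which acts with it, at 0.05 (limma adjusted p 0.939). Bcl11a and Sox6 were chosen after their values were seen.

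By the distance between centred log2 profiles over the 4 libraries, among 9807 genes that averaged 5 FPKM or more, the genes nearest to the summed adult globins were Nkain4 (distance 0.0121), Ramp2 (0.0225) and Galntl1 (0.0476), followed by 6230427J02Rik and Crlf2. The genes nearest to the summed embryonic globins were Snora3 (0.279), Riiad1 (0.297) and Gm11744 (0.362), followed by 4933404M02Rik and Ccdc153. With 4 libraries such a likeness is a description only.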

How the data were processed

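Total RNA of whole E16.5 lungs was sequenced, and the authors deposited 1 table of FPKM values (22556 genes, 4 libraries). Per the labels' processing notes, TopHat2 2.0.13 and Cufflinks 2.2.1 were used, and both GRCm38 and mm9 are named with no role given. FPKM values are not counts, and Cufflinks can divide reads between near-identical genes. For names and lengths only, 20242 symbols were found in GENCODE M21 and 1887 more by a RefSeq synonym.

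The 13770 genes that averaged 0.5 FPKM or more were tested on log2(FPKM + 0.1) in R 4.3.3 with limma 3.58.1 (lmFit, eBayes with trend, two-sided), with Benjamini-Hochberg adjustment over all of them and a threshold of 0.05. The model had 2 residual and 4.48 prior degrees of freedom. The study states independent biological replicates, but nothing ties a library to a single embryo, and p-values measure only the spread between these libraries. Ratios were formed from FPKM per library and compared by an exact permutation test over 6 arrangements. Depth was estimated from the steps of low values in 210 to 218 genes per library, of which 74.8% to 79.5% came out whole within 0.1 of a read. Estimated reads are FPKM times depth times transcript length less 210 bases. Only the limma fit was tested on simulated data.

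The members and lists were chosen with earlier results of these data known. Every member is named. From other lists the text could name genes past the threshold, the 2 highest and the 2 with the largest change. It names some of these and states other choices. Of the red cell membrane genes, 1 is counted but not reported by itself. Alternatives were other pseudocounts, filters, scalings, variance estimates, a replicate block, merged copies and leaving out each library. Added after seeing the data were a length and GC correction, a crossed pairing and the addition of Beta-s.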

Additional observations from a re-analysis of the deposited data

How the results depend on the processing

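With 2 libraries per genotype, no p-value here has more than 2 residual degrees of freedom of its own. Hba-x kept its direction under all 18 alternatives (log2 fold change -1.74 to -1.25) and its call under 14. The call was lost with no filter on low values (limma adjusted p 0.287), with the replicate block (0.0887) and without either Control library. Of the members, 2 were called lower (Hba-x and Hbb-y) with a pseudocount of 0.01, with a filter of at least 5 FPKM and with the crossed pairing, and 0 with no filter and with the replicate block. Leaving out 1 library, where the lone library of a genotype is assumed to vary like the others, gave 0 to 2, with 0 without either Control library and 2 without either Shh-Stk11 library. Of the other erythroid genes, 1 was called lower (Sptb) with a pseudocount of 0.01 and with eBayes without the trend, and 2 with robust eBayes (Sptb and Car2) and with the crossed pairing (Sptb and Tmod1). Slc4a1 turned to 0.29 without Shh-Stk11 2 and was at -1.001 without Shh-Stk11 1. As a geometric mean of the copies, the alpha embryonic to adult log2 difference was -0.16, because Hba-a2 holds at most 1.51 reads, and the alpha to beta difference was -0.49, or 0.0171 for the sum with Beta-s added. Leaving out 1 library gave -1.16 to -0.81 for the alpha ratio, -1.49 to -0.65 for the beta ratio and 0.03 to 0.07 for alpha to beta.

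Over the tested genes, the deviations of same-numbered libraries had a correlation of -0.114. With 2 libraries per genotype, a single such value cannot tell whether the numbers pair them. Over all genes the calls numbered 313, against 13 with the replicate block, 675 with the crossed pairing, 1 with no filter, 200 with a filter of at least 5 FPKM, 182 with the length and GC trend removed, 587 with robust eBayes and 104 to 319 without 1 library (104 without Control 2, 109 without Control 1). Where no cause is stated, the cause was not tested.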

Other observations

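Globins outside the clusters and genes that clear hemoglobin were also measured. Cygb, cytoglobin of fibroblast-like cells, stood at 13.9 and 11.7 FPKM in the Control libraries and at 6.95 and 8.47 FPKM in Shh-Stk11 libraries 1 and 2 (log2 fold change -0.73, limma adjusted p 0.0818), with no overlap between the genotypes. Ngb, neuroglobin, overlapped between them (log2 fold change -0.01, limma adjusted p 0.993). Hbq1a, a theta-type gene of the alpha cluster, stood at 1.32, 1.36, 0.899 and 0.682 FPKM (log2 fold change -0.70, limma adjusted p 0.265) and shares 35.1% of its windows of 50 bases with Hbq1b, at -0.87 (limma adjusted p 0.367). Of 8 tested genes of hemoglobin and heme clearance, limma called 0, with 2 lower at an unadjusted p under 0.05 (over all genes tested, 2.27% were called and 7.18% were lower at that p). Hp, haptoglobin, which binds free hemoglobin, was at -0.54 (limma adjusted p 0.241) and Blvrb, a biliverdin reductase, at -0.48 (limma adjusted p 0.187).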
